A study of Mus musculus and Mus spretus with 18 samples.

Results

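The brains of 2 mouse species were compared at postnatal day 14. The comparison was chosen by the age and species in the sample titles and takes in 6 of the 18 arrays of the series, 3 of each species. One group was Mus musculus of the strain WSB/EiJ and the other Mus spretus of the strain SPRET/EiJ. The species are called musculus and spretus below. Both are wild-derived inbred strains, so each species is represented by a single strain. The animals were untreated males of 14 days, and each brain was dissected without the olfactory bulb. The series also holds 3 arrays of each species at day 0 and at day 56, and these were used here as the reference for the day 14 difference. The difference is given throughout as spretus minus musculus on the log2 scale, over all 12346 Ensembl gene IDs with a value, so that 1 on this scale is a 2-fold difference.

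At this age the mouse brain is in the midst of myelination and of the formation and pruning of synapses, and the eyes are about to open or have just opened. Musculus and spretus are separate species that are still close enough to be crossed in the laboratory, and spretus differs from the reference mouse genome at many more bases than most laboratory strains do. Affymetrix arrays read each gene through a set of short probes written from reference sequence. Base differences under a probe can weaken its binding, and a mask is a list of probes left out of the summary of a gene. No gene name accompanies the Ensembl IDs in the files, and none of the IDs was found in the reference table used here. Genes are therefore described as groups and by a few IDs, no role is given to any of them, and defining markers of brain cell types could not be looked up. In whole brain, fewer cells of a type and less RNA per cell cannot be told apart.

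The 6 arrays had similar overall values, and 1 of them stood apart on a small set of genes. Array medians over the whole series lay between 6.52 and 6.56. Arrays of the same species correlated across genes with r of 0.992 to 0.994 (musculus) and 0.994 to 0.995 (spretus), and arrays of different species with r from 0.986 to 0.990. In musculus replicate 3, 37 genes lay at least 2-fold below the mean of the other musculus arrays of day 14, against 1 to 5 genes in the other 5 arrays. Of these 37 genes, 10 lay at least 4-fold below, and the lowest differed from that mean by -4.95 on the log2 scale. Results are given with and without this array where it bears on them.

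A modest but widespread difference separated the species at day 14. Of all genes, 1622 were called different (13.1% of those tested; limma, adjusted p under 0.05). Spretus was higher in 844 of them (6.84%) and lower in 778 (6.3%). Most differences were small. The called genes higher in spretus had a median difference of 0.44, or 1.36-fold, and the called genes lower in spretus had a median of -0.48, or 1.39-fold. The top 25% of the former exceeded 0.57 and the top 25% of the latter exceeded 0.63 in size. Over all genes the median difference was 0.03 and the median size of the difference was 0.14, set against a median standard error of 0.11. Without musculus replicate 3, 1149 genes were called, 569 higher and 580 lower in spretus. Without spretus replicate 2 the count was 1052, with 506 higher, and without musculus replicate 2, 551 were higher. With the 6 arrays fitted alone it was 993.

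Large differences were rare and leaned towards lower levels in spretus. At least 2-fold differences were called in 69 genes (0.559% of those tested), of which 27 were higher and 42 lower in spretus. At a log2 size of at least 0.5, 311 called genes were higher and 357 lower. The only called differences of 2 or more on the log2 scale were 2 genes lower in spretus, and no called gene was higher by that much. The values of the species did not overlap in 1578 of the called genes (12.8% of those tested), 816 higher and 762 lower in spretus. Over all genes, called or not, 3783 had no overlap (30.6%), so separate values alone were common. The other 44 called genes had values that overlapped.

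**Figure D1:**
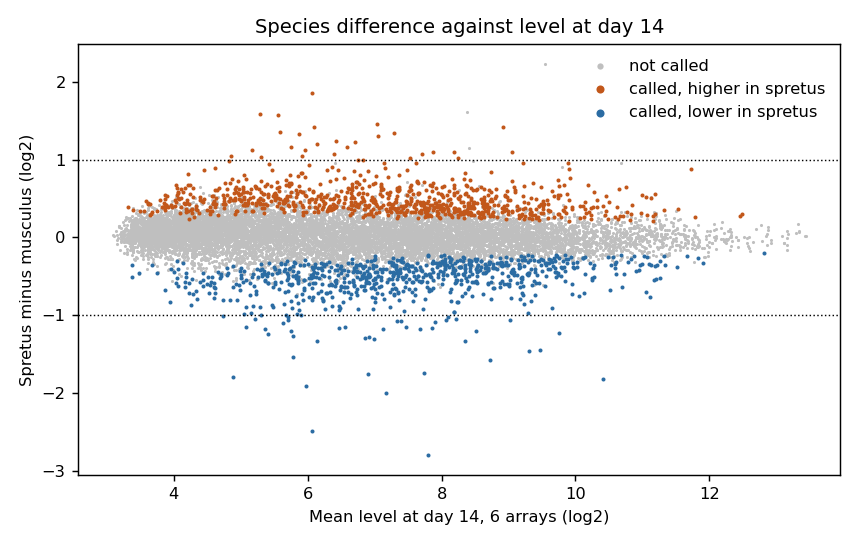
Each point is 1 of 12346 genes, with the mean log2 level over the 6 arrays of day 14 on the x axis and the log2 difference, spretus minus musculus, on the y axis. Orange and blue points are the 844 and 778 genes called higher and lower in spretus, grey points were not called, and dotted lines mark 2-fold. Points below the lower line outnumber those above the upper one, and 3 grey points lie above the upper line.

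The pair of genes with the largest differences higher in spretus differed in how well their values were set apart. ENSMUSG00000032115 stood at 4.93, 5.38 and 5.11 in the musculus arrays of day 14 and at 6.98, 6.96 and 7.04 in the spretus arrays. The groups were far apart and the spretus values lay close together. The difference was 1.85 ± 0.17 (SE; limma, adjusted p = 2.16e-06), or 3.61-fold, and 13 probes of this gene were masked. ENSMUSG00000006764 stood at 4.84, 5.16 and 3.50 in musculus and at 6.27, 5.80 and 6.18 in spretus. Its low musculus value was that of replicate 3, the array that stood apart. The difference was 1.58 ± 0.28 (adjusted p = 0.00125) with all arrays and 1.08 without musculus replicate 3 (adjusted p = 0.000491), and 2 of its probes were masked. Its musculus mean of 4.50 lay under 4.76, the limit of the dimmest 25% of genes, where differences on an array can be compressed. The values of musculus replicates 1 and 2, at 4.84 and 5.16, lay above that limit.

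The pair of genes with the largest differences lower in spretus were both heavily masked. ENSMUSG00000023571 stood at 9.28, 9.03 and 9.26 in musculus and at 6.44, 6.33 and 6.41 in spretus. No array of either species came near the other species. The difference was -2.80 ± 0.11 (SE; limma, adjusted p = 7.65e-11), or 6.95-fold, and 16 probes were masked. ENSMUSG00000021693 stood at 7.35, 7.37 and 7.19 in musculus and at 5.27, 4.59 and 4.58 in spretus. Its difference was -2.49 ± 0.18 (adjusted p = 1.58e-07) with 12 masked probes, and its spretus mean of 4.82 lay close to the limit of the dimmest 25%.

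These 4 genes did not pass the test of a day 14 difference that departs from the other ages. ENSMUSG00000032115 had differences of 2.01 at day 0 and 1.53 at day 56, and ENSMUSG00000023571 of -2.26 and -2.60. ENSMUSG00000021693 was at -3.01 and -2.45. ENSMUSG00000006764 had a difference of 0.33 at day 0 that was not called (limma, adjusted p = 0.512) and one of 1.33 at day 56 that was (adjusted p = 0.00355). The departures at day 14 from the mean of days 0 and 56 were between -0.37 and 0.75, with limma adjusted p of 0.335 to 0.916.

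**Figure D2:**
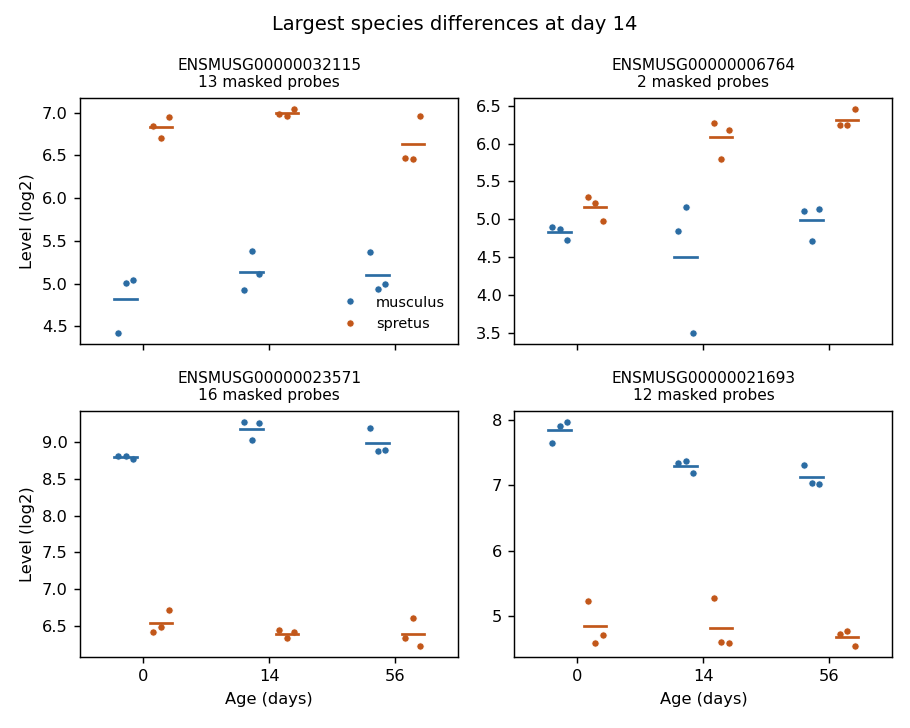
Log2 levels (y axis) are shown by age in days (x axis), with 1 point per array and a line at the mean of 3 arrays. The 4 genes are the 2 in each direction with the largest called differences without overlap at day 14. Musculus is blue and spretus orange. At day 14 the values of the species do not overlap in any of the 4 genes, and 1 musculus point of ENSMUSG00000006764, at 3.50, lies well below the other two.

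There were 3 genes that had a mean difference of at least 2-fold and were not called, and all of them were low in musculus replicate 3. They are named because they were singled out after their values were seen. ENSMUSG00000020428 stood at 10.14, 10.01 and 5.13 in the musculus arrays and at 10.997, 10.93 and 10.05 in spretus. Its mean difference of 2.23 ± 0.82 (SE; limma, adjusted p = 0.084) was above that of any called gene higher in spretus, and it was 0.58 without replicate 3 (adjusted p = 0.0932). ENSMUSG00000040380 stood at 8.87, 8.56 and 5.26 in musculus, and its difference went from 1.62 to 0.47 without that array. ENSMUSG00000004630 stood at 9.08, 8.81 and 5.62 in musculus, and its difference went from 1.15 to 0.05.

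The whole set of 37 genes that were low in musculus replicate 3 behaved in the same way. Their median species difference was 0.46 with all arrays and -0.18 without replicate 3. Spretus was higher in 28 of them with all arrays and in 16 without that one. With all arrays 4 of them (10.8%) were called, 2 in each direction, against 13.1% of all genes. Without replicate 3, 6 (16.2%) were called, against 9.31% of all genes. This set was chosen by the values of the array itself, so these numbers describe the array and test nothing about the species. What set the array apart was not tested.

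Species calls became more frequent as more probes of a gene were masked, more steeply for genes lower in spretus. Among 3221 genes with no masked probe, 6.27% were called, 149 higher and 53 lower in spretus. Among 2792 genes with 1 masked probe, 9.78% were called, among 3299 genes with 2 to 3, 13.4%, and among 1533 genes with 4 to 6, 17.5%. Among 1501 genes with 7 or more, 29.0% were called, 167 higher and 268 lower. The share called higher thus went from 4.63% to 11.1% between the extreme classes, and the share called lower from 1.65% to 17.9%. Over all genes 13.1% were called in either direction, 6.84% higher and 6.3% lower. The median standard deviation per gene fell from 0.16 with no masked probe to 0.12 with 4 to 6 and 0.12 with 7 or more. The median size of the difference, called or not, was 0.13, 0.14, 0.14, 0.14 and 0.18 from the least to the most masked class. More calls therefore went with less spread as well, and the part of spread in them was not tested. Without musculus replicate 3, 3.79% of the genes with no masked probe and 22.2% of those with 7 or more were called, against 9.31% of all genes.

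**Figure D3:**
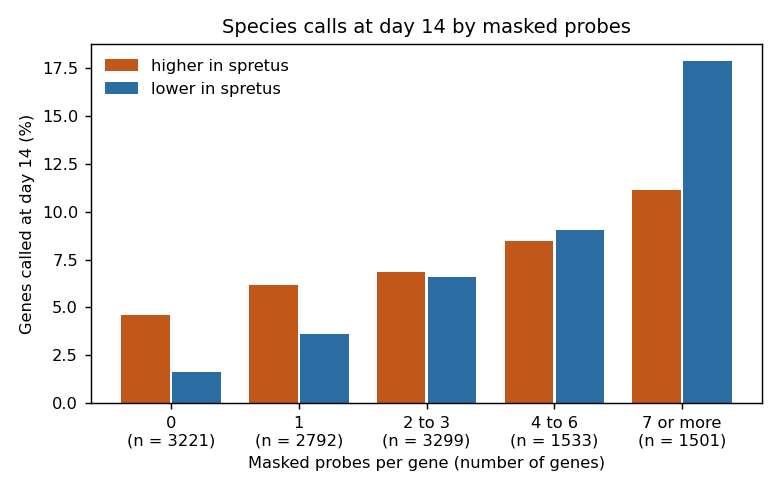
Bars give the percent of genes called higher (orange) or lower (blue) in spretus at day 14 (y axis) for 5 classes of masked probes per gene (x axis, with the number of genes). Both shares rise from left to right, and the lower share goes from 1.65% to 17.9% and overtakes the higher share in the class of 4 to 6.

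Among called genes alone, the median sizes of the differences were close in the extreme classes, while their tails were not. The median of the called genes higher in spretus was 0.43 with no masked probe and 0.43 with 7 or more. That of the called genes lower in spretus was -0.45 and -0.49. The threshold of a call partly sets these medians. Over all genes, called or not, the median size was 0.13 with no masked probe and 0.18 with 7 or more. All 69 genes with a called difference of at least 2-fold had at least 1 masked probe, as did 73.9% of all genes. The class of 7 or more, with 12.2% of all genes, held 13 of those higher and 25 of those lower in spretus. These 38 genes are 2.53% of that class, against 0.559% over all genes. The median number of masked probes was 5 in the called genes at least 2-fold higher in spretus, 8.5 in those at least 2-fold lower, and 2 over all genes. Over all genes of a class, the median difference went from 0.08 with no masked probe to -0.04 with 7 or more.

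Expression level moved with masking and was set beside it. Median levels at day 14 were 4.76 in genes with no masked probe and 8.10 in genes with 7 or more. In the dimmest 25% of genes at day 14, 3.13% of 1596 genes with no masked probe and 24.2% of 33 genes with 7 or more were called. The latter share rests on 8 called genes, and over all genes of that level 4.57% were called. In the brightest 25% the corresponding shares were 11.3% of 320 genes and 26.8% of 691 genes. Over all genes of that level 16.3% were called, and over all levels 13.1%. The genes with many masked probes were thus called more often at both ends of the range of levels. The share of calls that were lower in spretus went up with level over all genes, from 33.3% in the dimmest 25% through 45.6% and 50.2% to 51.6% in the brightest. With no masked probe it went from 14% through 21.2% and 30% to 47.2%. With 7 or more it did not follow that order, at 62.5%, 72.7%, 65.3% and 54.1%. The number of probes kept per gene is not known, and the part of probe sequence in these differences was not tested.

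Among genes with no masked probe the differences stayed just under 2-fold. The gene highest in spretus in this class, ENSMUSG00000007877, stood at 6.31, 6.27 and 6.18 in musculus and at 7.43, 7.05 and 7.25 in spretus, a difference of 0.99 ± 0.11 (SE; limma, adjusted p = 1.34e-05). The gene lowest in spretus in this class stood at 6.35, 6.19 and 6.68 in musculus and at 5.84, 5.06 and 5.31 in spretus, a difference of -0.9999 ± 0.16 (adjusted p = 0.000596). The next gene in that direction stood at 5.79, 5.82 and 5.79 in musculus and at 5.04, 4.73 and 4.64 in spretus, a difference of -0.997. A brighter gene of this class stood at 9.70, 9.55 and 9.71 in musculus and at 8.74, 8.77 and 8.89 in spretus. Its difference of -0.85 ± 0.10 (adjusted p = 3.77e-05) was called at day 0 and day 56 as well, at -0.55 and -0.75.

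The differences at days 0 and 56 come from other arrays than the day 14 difference, although 1 estimate of the spread from all 18 arrays enters every call. At day 0 and at day 56, 14.3% of genes were called between the species. Of these, 364 were higher and 342 lower in spretus at both ages. At day 14, 235 of the 364 (64.6%) were called higher, against 6.84% of all genes, and 252 of the 342 (73.7%) were called lower, against 6.3% of all genes. None was called in the opposite direction, and 7 genes of each set had a difference of the opposite sign. The median day 14 difference was 0.39 in the former set and -0.48 in the latter. Without musculus replicate 3, 52.5% of 364 and 67.0% of 345 genes were called in the matching direction. In an alternative added after the data were seen, the genes were chosen in a fit of the 12 arrays of days 0 and 56 alone and called in a fit of the 6 arrays of day 14 alone, so that no spread was shared. Then 163 of 333 genes (48.9%) were called higher, against 3.92% of all genes, and 188 of 321 (58.6%) lower, against 4.12%, with none in the opposite direction.

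Every day 14 array fell with its own species on these genes. The mean level of the 364 genes minus that of the 342 genes was -0.12, -0.09 and -0.09 in the 3 musculus arrays of day 14 and 0.85, 0.89 and 0.90 in the 3 spretus arrays. The species were 0.98 apart at day 14 on this scale, 1.20 at day 0 and 1.17 at day 56. The latter values chose the genes and are for that reason not comparable in size with the day 14 value. Without musculus replicate 3 the day 14 distance was again 0.98. On the genes chosen without any day 14 array the 3 musculus arrays lay at -0.24, -0.21 and -0.20 and the 3 spretus arrays at 0.77, 0.80 and 0.82.

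**Figure D4:**
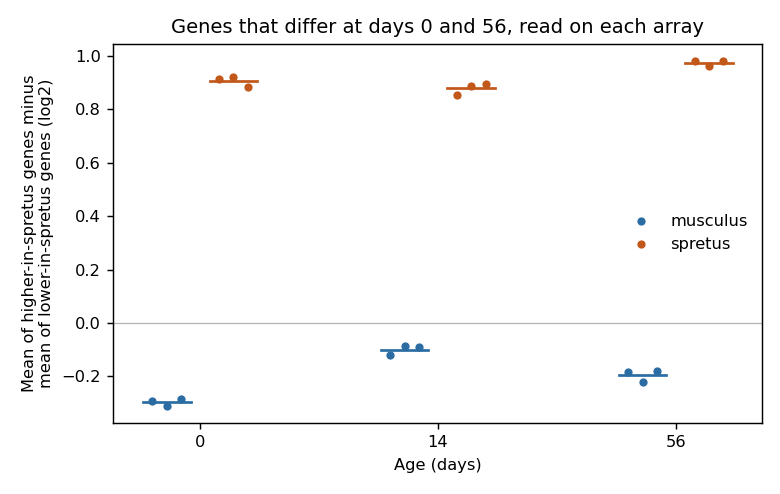
The y axis gives, for each array, the mean log2 level of the 364 genes higher in spretus at days 0 and 56 minus that of the 342 genes lower in spretus at both ages, and the x axis gives age in days. Points are arrays and lines are means of 3 (musculus blue, spretus orange). The genes were chosen by their calls at days 0 and 56, and the day 14 arrays lie between -0.12 and -0.09 (musculus) and between 0.85 and 0.90 (spretus).

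Many genes were called at day 14 alone, which does not by itself show that the difference departs there from the other ages. Of the 1622 called genes, 487 were also called with the same sign at both other ages. Another 561, or 34.6%, were called at neither day 0 nor day 56, of which 323 were higher and 238 lower in spretus. Their median differences were 0.41 and -0.41 at day 14. The same genes had medians of 0.08 and -0.12 in newborns and of 0.13 and -0.17 in young adults, in the same directions and closer to 0. Both other ages had the sign of day 14 in 181 of the 323 and in 157 of the 238. The test of a departure described next was passed by 4 of the 561 genes (0.713%), 1 higher and 3 lower in spretus, against 0.154% of all genes. The 561 were chosen on the day 14 values that this test also uses. Without musculus replicate 3, 310 genes were called at day 14 alone, and 5 of them (1.61%) passed that test. A call with the opposite sign was found at day 0 for 5 of the genes higher and 6 of the genes lower at day 14, and at day 56 for none.

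The departure of the day 14 species difference from the mean of those at days 0 and 56 was tested in all genes. It was called in 19 genes (0.154% of those tested; limma, adjusted p under 0.05), and 1325 genes had an unadjusted p under that threshold. In 5 genes (0.0405%) the day 14 difference lay above the mean of the other ages and in 14 (0.113%) below. Median departures were 0.63 and -0.90. With day 14 tested against day 0 alone and day 56 alone, 2 of the 14 genes were called in both tests. None (0) of the 5 genes was. The day 14 difference itself was called in 3 of the 5 genes above, all higher in spretus. It was called in 8 of the 14 genes below, 7 lower and 1 higher in spretus. In the other 8 of the 19 genes no difference was called at day 14. The day 14 difference and the departure both use the day 14 arrays, so these counts only describe the 19 genes. The count depends on single arrays: it was 30 without musculus replicate 1, 9 without musculus replicate 2, 11 and 12 without spretus replicates 1 and 2, and again 19 without musculus replicate 3.

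In the pair of genes with the largest departures above, spretus rose more steeply to day 14 than musculus did. ENSMUSG00000056966 stood at 6.73, 6.68 and 6.46 in musculus and at 8.30, 7.64 and 7.97 in spretus at day 14. The musculus and spretus means were 4.64 and 4.38 in newborns and 6.79 and 7.23 in young adults. The day 14 difference of 1.34 ± 0.16 (SE; limma, adjusted p = 3.55e-05) exceeded the mean of the other ages by 1.26 ± 0.19 (adjusted p = 0.00683). Its day 0 levels lay under the limit of the dimmest 25% of genes, and 3 of its probes were masked. ENSMUSG00000007877, which has no masked probe and was described before, had differences of -0.22 at day 0 and 0.49 at day 56 beside 0.99 at day 14, a departure of 0.86 ± 0.13 (adjusted p = 0.00683). Both departures were larger against day 0 than against day 56. Against day 0 alone they were 1.60 and 1.21 (limma, adjusted p = 0.00147 and 0.0011). Against day 56 alone they were 0.91 and 0.50, and not called (adjusted p = 0.188 and 0.284).

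The pair of genes with the largest departures below followed different courses. ENSMUSG00000030560 stood at 8.66, 8.72 and 8.46 in musculus and at 7.01, 6.63 and 6.96 in spretus at day 14, with no overlap. Its difference was -1.75 ± 0.14 (SE; limma, adjusted p = 4.13e-07) at day 14, -0.64 at day 0 and -0.31 at day 56. The departure of -1.27 ± 0.17 (adjusted p = 0.00249) held against each age alone, with adjusted p of 0.00878 for day 0 and 0.00525 for day 56. The means show a peak in musculus, from 8.18 to 8.61 and then 7.35, while spretus went from 7.54 to 6.87 and 7.04. ENSMUSG00000025140 was higher in spretus by 1.23 at day 0 and by 0.79 at day 56, and at day 14 the species overlapped. The 3 musculus values of that day were 6.44, 6.36 and 6.93 and its spretus values 6.43, 6.35 and 6.50, a difference of -0.15 that was not called (adjusted p = 0.483), and the departure was -1.16 ± 0.15 (adjusted p = 0.00249). For ENSMUSG00000025140 the departure was -1.38 against day 0 alone (limma, adjusted p = 0.0011). Against day 56 alone it was -0.94 and not called (adjusted p = 0.0688). The musculus value of 6.93 at day 14 was that of replicate 3. Without that array the departure from the mean of days 0 and 56 was -0.98 (limma, adjusted p = 0.00417). Each gene of the pair had 3 masked probes.

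**Figure D5:**
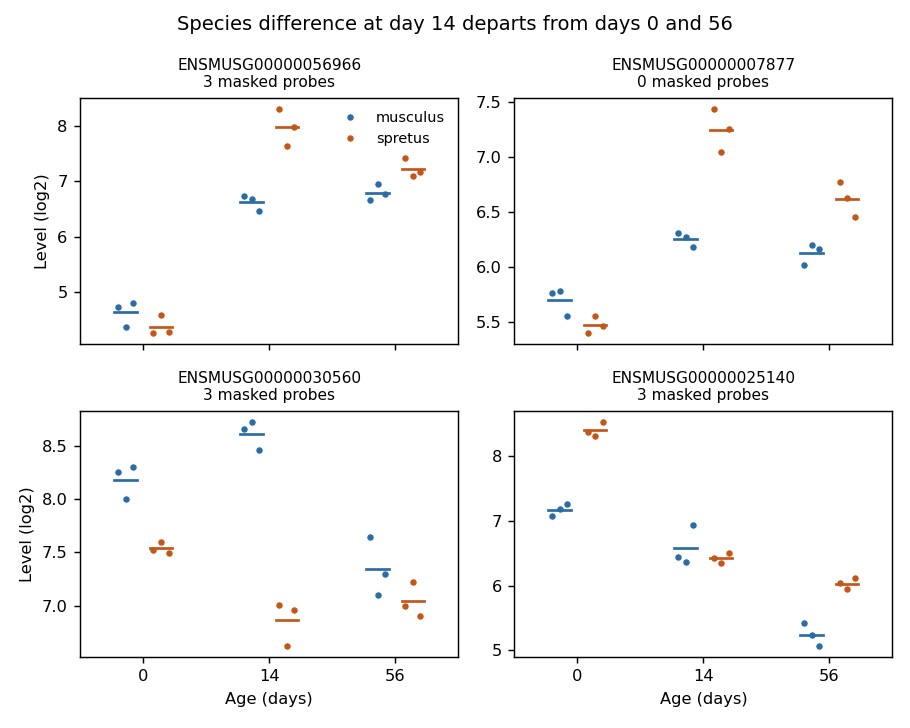
Log2 levels (y axis) are shown by age in days (x axis), with 1 point per array and a line at the mean of 3 arrays. The 4 genes are the 2 in each direction with the largest called departures of the day 14 species difference. Musculus is blue and spretus orange. The species are farthest apart at day 14 in ENSMUSG00000056966, ENSMUSG00000007877 and ENSMUSG00000030560, and overlap at day 14 in ENSMUSG00000025140.

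The day 14 difference was also set beside the change of each gene from day 0 to day 56, averaged over both species. That change is measured on other arrays, and its calls share the estimate of the spread. Among 573 genes that rose at least 2-fold between those ages, 21.5% were called at day 14, 73 higher and 50 lower in spretus. Among 539 genes that fell at least 2-fold, 16.3% were called, 32 higher and 56 lower. Genes with smaller called rises and falls were called at day 14 in 16.8% and 15.9%, and the 5790 genes with no called change with age in 9.03%. Over all genes the share called at day 14 was 13.1%. Lower genes made up 40.7% of the day 14 calls among the strongly rising genes and 42.8% among those that rose less. Among genes with no called change with age they made up 42.8% as well. The share was 58.1% among genes that fell less and 63.6% among the strongly falling genes, against 48.0% over all calls. The rising genes thus lay close to the genes with no called change, and the falling genes above them. The median difference was 0.05 in the strongly rising and -0.02 in the strongly falling genes. It was 0.06 in genes with no called change with age and 0.03 over all genes. All are small beside 0.11, the median standard error of a single gene, which is not the error of these medians. Genes with no called change with age were also dimmer, at a median level of 4.99, against 8.52 and 7.24 in the strongly rising and falling genes, and had fewer masked probes, a median of 1 against 3 and 2. In the separate fits of days 0 and 56 and of day 14, 12.7% of the strongly rising, 9.83% of the strongly falling and 5.66% of the genes without a called change were called, against 8.04% of all genes.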

How the data were processed

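Biotin-labelled RNA from each animal was hybridised to a 1-colour Affymetrix mouse array, per the labels' protocols. The deposited table holds log2 values, 1 per Ensembl gene ID and array, which were already normalized between arrays by the authors. The log base was inferred from the range of the values. The method of summarisation and normalization is not stated in these sources. The other deposited table lists 46864 masked probes with their position on the array, a unit of its own kind, and was used to count masked probes per gene; the reason for masking is not stated. The number of arrays limits the precision.

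A linear model with 6 group means was fitted to all 18 arrays with limma 3.58.1 in R 4.3.3 (12 residual degrees of freedom, two-sided, Benjamini-Hochberg over 12346 genes, called at adjusted p under 0.05), without a replicate block. It was tested on simulated data. Nothing says that animals came from separate litters, so p-values measure the spread between these samples. The 45 correlations between same-numbered arrays of different groups lay between -0.16 and 0.15, and 4 exceeded 0.1. The highest was that of musculus and spretus replicate 3 at day 14. The replicate numbers were therefore not taken as pairs. None of the IDs matched a symbol (0 of 12346), so 32 gene lists were not used. IDs were named by the rule of the largest called change without overlap, 2 per direction. The rule stopped at that comparison, so the 4 IDs of the departure, where overlap was allowed, and 3 uncalled genes were chosen after their values were seen. Members and lists were chosen with earlier results of these data known. The lists of genes low in 1 array, and the classes of masked probes, level and age, were set after the data were seen. Alternatives are listed further on.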

Additional observations from a re-analysis of the deposited data

Results flagged for a closer look

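The species difference at day 14 differed from the mean of those at days 0 and 56, by the test of that difference itself, in 19 genes. A gene can pass this test by differing from 1 of those ages. Only 2 of the 14 departures below, and none (0) of the 5 above, were called against each age alone. The 4 examples given before had departures of 1.26 (ENSMUSG00000056966), 0.86 (ENSMUSG00000007877), -1.27 (ENSMUSG00000030560) and -1.16 (ENSMUSG00000025140) on the log2 scale. In the first 3 all spretus values of day 14 lay on one side of all musculus values. Groups of 3 arrays are too small for the test for a single outlying sample used here.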

How the results depend on the processing

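Of the 1622 genes called at day 14, 763 were called in each of the 6 fits that left out 1 day 14 array. Leaving out 1 array gave 1052 to 1466 calls, 506 to 762 higher and 546 to 704 lower in spretus. The lowest of these counts came without spretus replicate 2. With the 6 arrays fitted alone 993 genes were called, 484 higher and 509 lower, with fewer degrees of freedom. Without genes with 7 or more masked probes, 1010 were called, 442 of them lower and 31 at least 2-fold. Genes with no masked probe tested alone gave 58 calls by limma, 37 higher and 21 lower, none (0) at least 2-fold, against 202 of them called in the whole table. Both sets hold fewer genes. Departures at day 14 numbered 9 to 30 with 1 day 14 array left out and 32 with a mean-dependent variance prior. They numbered 9 after removing the most masked class and 2 in the unmasked class alone. The cause of the other changes was not tested. No array of days 0 and 56 was left out, though the departure uses these arrays as well. In musculus replicate 2 of day 0, 14 genes lay at least 2-fold below the other musculus arrays of that day, the lowest by -6.96 on the log2 scale. With the replicate block 1538 genes were called at day 14, and 14 departures. Quantile normalization gave 1617 calls, 785 higher and 832 lower in spretus. Centring on the median gave 1595, 886 higher and 709 lower. Which direction held more calls thus depended on the normalization. The 8 genes named for a called difference or departure kept their call and direction in the 13 or 14 settings that apply to each. The 3 uncalled genes named beside them were refitted without musculus replicate 3 only, as given before. With days 0 and 56 and day 14 fitted separately, a setting added after seeing the data, 48.9% and 58.6% of the genes higher and lower at both other ages were called in that direction, against 64.6% and 73.7%. Counts of gene list members were not run, since no member was matched. Differences on an array can be compressed in the dimmest genes, and whether they were here was not tested. Without the 25% of genes with the lowest mean level, 66 genes were called at least 2-fold different at day 14, against 69 with all genes.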
